A study of Mus musculus with 6 samples.

Results

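The T cell receptor complex and T cell genes described here are 10 genes: the CD3 chain genes Cd3d, Cd3e and Cd3g, the receptor constant genes Trac, Trbc1 and Trbc2, the co-receptor genes Cd4 and Cd8a, the kinase gene Lck and the adhesion receptor gene Cd2. They were chosen by name, after earlier results of these data were known, as a residual lymphocyte signal in sorted myeloid cells, and they are 10 of 29347 genes with at least 1 estimated read after rounding. All 10 passed the filter on low counts that left 16656 genes. Since they were chosen with the genotype contrast in view, their difference between the genotypes is given as a description, with no p-value. The number of them that met the calling rule of the fit across all genes is shown only beside the share of all genes that met it.

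RNA-seq was performed on CD11b+Gr1+ splenocytes of mice carrying the Mll-AF9 fusion oncogene, a knock-in that serves as a model of acute myeloid leukemia. There were 3 libraries of Rpl22+/+ Mll-AF9 leukemia and 3 of Rpl22-/- Mll-AF9 leukemia, so that every library carried Mll-AF9 and no library came from cells without the oncogene. Rpl22 encodes a ribosomal protein of the large subunit and was lost in the germline rather than in one lineage. The labels state neither the age of the animals nor whether each library stands for its own animal, and the paper names a single mouse of each genotype as the source of the explanted leukemias. The libraries of a genotype may therefore share an animal, so that the genotype and differences between individual leukemias cannot be told apart, and the p-values below measure the spread between these libraries, which may be technical.

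The alpha and beta chains of the T cell receptor, encoded by Trac, Trbc1 and Trbc2 joined to rearranged variable genes, recognize antigen but cannot signal on their own. Signals are passed on by the associated CD3 gamma, delta and epsilon chains and the zeta chain, which are phosphorylated by Lck, a kinase held at the co-receptors CD4 and CD8. The CD3 and receptor constant genes are characteristic of T cells, whereas Cd4 and Cd8a are also carried by dendritic cell subsets of the spleen, Lck by NK cells and Cd2 by B cells.

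Total estimated reads ran from 35828500 (Rpl22-/- replicate 1, the shallowest library) to 102866127 per library. Rpl22 itself was at 148, 235 and 152 CPM (read counts scaled to the size of each library, here with TMM factors) in Rpl22+/+ replicates 1 to 3 and at 58.3, 89.9 and 73.5 CPM in the Rpl22-/- libraries (log2 fold change -1.27 ± 0.25 (SE), edgeR quasi-likelihood adjusted p = 0.0106), so reads assigned to it were lower but not absent. The sorted myeloid marker list (13 genes, including Itgam for CD11b and Ly6g, Ly6c1 and Ly6c2 for Gr1) summed to between 42703 and 56281 CPM in Rpl22+/+ libraries and between 45156 and 57189 CPM in Rpl22-/- libraries. Its genes with most reads, S100a8 and S100a9, did not pass the test. Among them Itgam, Ly6g and Lyz2 fell (log2 fold changes -1.02, -3.49 and -1.28), while Mpo and Elane, granule genes of early myeloid cells, rose (2.99 and 3.48). Ly6c2 and Ly6c1, whose products Gr1 antibodies can also bind, were not called (0.51 and 0.40), with Ly6c2 at 967 ± 274 CPM against 1379 ± 262 CPM (SD, n = 3). Of all tested genes 1488 were higher and 1423 lower in Rpl22-/- cells when a call asked for an adjusted p under 0.05 together with a change of more than 1 on the log2 scale in either direction, the rule behind every call below.

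All 10 members were lower on average in Rpl22-/- cells. The calling rule took 8 of them as lower against 8.54% of all tested genes, and the genotypes did not overlap for 9 of them against 22.2% of all tested genes in that direction. Nothing is read from these counts, since the members were chosen on the same contrast. Their median log2 fold change was -1.60, and that of all genes was 0.07. The mean level in Rpl22-/- cells as a percentage of that in Rpl22+/+ cells went from 15.3% for Cd3d to 63.9% for Cd2. In bulk samples, fewer T cells, less RNA per T cell and a change in other cells of the sort cannot be told apart.

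**Figure D1:**
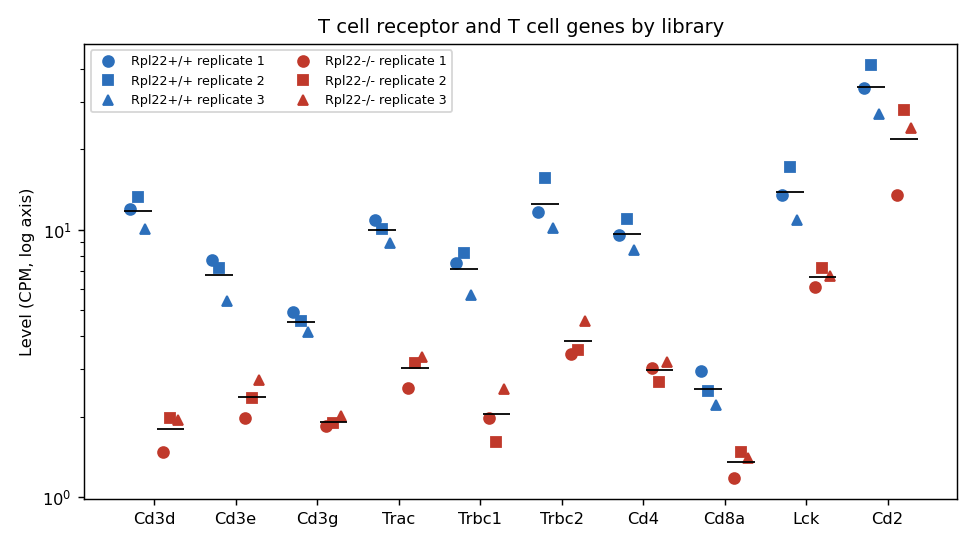
Level of each of the 10 genes in CPM (log axis) in the 3 Rpl22+/+ libraries (blue) and the 3 Rpl22-/- libraries (red), with symbols for replicate number and a black line at the mean of each genotype. The genotypes are apart for every gene but Cd2, for which Rpl22-/- replicate 2 lies above Rpl22+/+ replicate 3.

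The CD3 members lie side by side on chromosome 9. In GRCm39 coordinates, Cd3g occupies 44880870 to 44891729 on the minus strand, Cd3d 44893084 to 44898637 on the plus strand and Cd3e 44910038 to 44920925 on the minus strand. Cd3g and Cd3d are transcribed away from each other from starts 1355 bases apart. RefSeq promoter windows, 250 bases before to 50 after the start in the older build GRCm38.p6, were at hand for 5 of the 10 members. The windows of the CD3 genes are shown because the levels of these neighbours differed in how far they were lower, and that of the upstream Lck start because it produced most Lck reads. Capitals mark matches on either strand to GGAAG (the ETS core, in 71.4% of 32851 promoters of the same length), TGTGGT (RUNX, 16.8%), CTTTGA (TCF/LEF, 16.0%) or AGATAA (the GATA motif, 11.2%), each read 5′ to 3′ on the strand of the gene.
Cd3d, chr9:44981536-44981835, plus strand: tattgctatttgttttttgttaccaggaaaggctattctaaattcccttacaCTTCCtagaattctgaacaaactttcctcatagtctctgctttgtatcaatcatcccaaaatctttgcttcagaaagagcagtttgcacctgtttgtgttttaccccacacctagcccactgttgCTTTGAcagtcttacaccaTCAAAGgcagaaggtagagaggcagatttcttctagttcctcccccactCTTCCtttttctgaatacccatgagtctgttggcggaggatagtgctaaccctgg
Cd3g, chr9:44980382-44980681, minus strand: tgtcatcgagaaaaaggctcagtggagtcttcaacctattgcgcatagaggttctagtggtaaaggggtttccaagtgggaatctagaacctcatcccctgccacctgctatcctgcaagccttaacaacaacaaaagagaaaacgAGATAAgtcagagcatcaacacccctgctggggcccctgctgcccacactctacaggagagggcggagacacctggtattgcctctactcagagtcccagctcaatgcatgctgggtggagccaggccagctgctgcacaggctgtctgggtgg
Cd3e, chr9:45009562-45009861, minus strand: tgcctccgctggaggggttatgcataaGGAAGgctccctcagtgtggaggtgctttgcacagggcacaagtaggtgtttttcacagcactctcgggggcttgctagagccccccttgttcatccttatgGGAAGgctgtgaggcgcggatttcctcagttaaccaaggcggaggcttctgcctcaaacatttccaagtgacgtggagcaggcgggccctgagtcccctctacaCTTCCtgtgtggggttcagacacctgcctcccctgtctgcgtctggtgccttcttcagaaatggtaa
Lck, start of transcript Lck-202, chr4:129573592-129573891, minus strand: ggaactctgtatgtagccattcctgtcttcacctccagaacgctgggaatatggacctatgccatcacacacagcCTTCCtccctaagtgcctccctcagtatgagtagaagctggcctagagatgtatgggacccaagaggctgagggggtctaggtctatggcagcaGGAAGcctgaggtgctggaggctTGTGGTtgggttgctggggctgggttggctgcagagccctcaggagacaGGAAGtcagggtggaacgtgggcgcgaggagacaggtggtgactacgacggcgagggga
The Cd3d window held 2 ETS and 2 TCF/LEF matches, the Cd3e window 3 ETS matches and the Cd3g window 1 GATA match. The Lck-202 window held 3 ETS matches and 1 RUNX match. Such matches describe letters in a window and do not show binding.

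Cd3d, which encodes the CD3 delta chain, was at 11.9, 13.3 and 10.1 CPM in Rpl22+/+ replicates 1 to 3 and at 1.47, 1.98 and 1.94 CPM in Rpl22-/- replicates 1 to 3. The groups were far apart, with a log2 fold change of -2.70 ± 0.21 (SE), the lowest of the 10. In the shallowest library the value rested on 55 reads, for which the exact 95% Poisson interval was 1.11 to 1.91 CPM and covered counting error only.

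Cd3e, which encodes the CD3 epsilon chain that pairs with both delta and gamma, was at 7.69, 7.21 and 5.40 CPM in Rpl22+/+ libraries and at 1.98, 2.35 and 2.75 CPM in Rpl22-/- libraries (log2 fold change -1.52 ± 0.23 (SE)). Cd3g, for the CD3 gamma chain, was at 4.90, 4.55 and 4.13 CPM against 1.84, 1.90 and 2.00 CPM (-1.24 ± 0.18 (SE)). Neither gene had an Rpl22-/- library at the level of any Rpl22+/+ library.

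The CD3 genes were thus lower by different amounts. Per transcript length, in TPM (transcript abundance scaled to length and library), the ratio of Cd3d to Cd3e was 1.48, 1.68 and 1.80 in Rpl22+/+ libraries and 0.696, 0.896 and 0.687 in Rpl22-/- libraries, so that Cd3d was above Cd3e in every Rpl22+/+ library and below it in every Rpl22-/- library. The ratio of Cd3g to Cd3e was 1.06 ± 0.08 (SD, n = 3) against 1.27 ± 0.22 (SD, n = 3), and these groups overlapped. Nearly all Cd3d reads (99.6%) came from the coding transcript Cd3d-201, 97.7% of Cd3g reads from Cd3g-201 and 91.4% of Cd3e reads from Cd3e-201.

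The neighbourhood of the CD3 genes was examined after these values had been seen. Within 250 kb on either side there were 16 other genes, of which 13 were tested, none was called higher, 2 were called lower and 11 were not called, with a median log2 fold change of -0.36. Of all tested genes 8.54% were called lower and 8.93% were called higher. The gene next to the CD3 cluster on the side of lower coordinates, the ubiquitin ligase gene Ube4a, was at 0.02 ± 0.17 (SE). Kmt2a, the locus that hosts the Mll-AF9 knock-in and ends 88.3 kb before the cluster, was at 0.67 ± 0.23 (SE, edgeR adjusted p = 0.0749). On the other side, the sodium channel subunit genes Scn2b and Scn4b were lower in Rpl22-/- cells by more than any CD3 gene, with Scn2b at 41.2, 34.9 and 37.6 CPM against 0.321, 0.389 and 0.368 CPM. On that side Mpzl3, Jaml and Il10ra were also lower without overlap (-0.45, -0.94 and -0.90), none of them called, and Tmprss4 overlapped (-0.19). The median log2 fold change of the 757 tested genes of chromosome 9 was 0.34 and that of the 832 of chromosome 4, where Lck lies, was 0.44, whereas the medians of the other chromosomes ran from -0.08 to 0.11. The part of these chromosome-wide shifts in the values of the members was not tested.

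**Figure D2:**
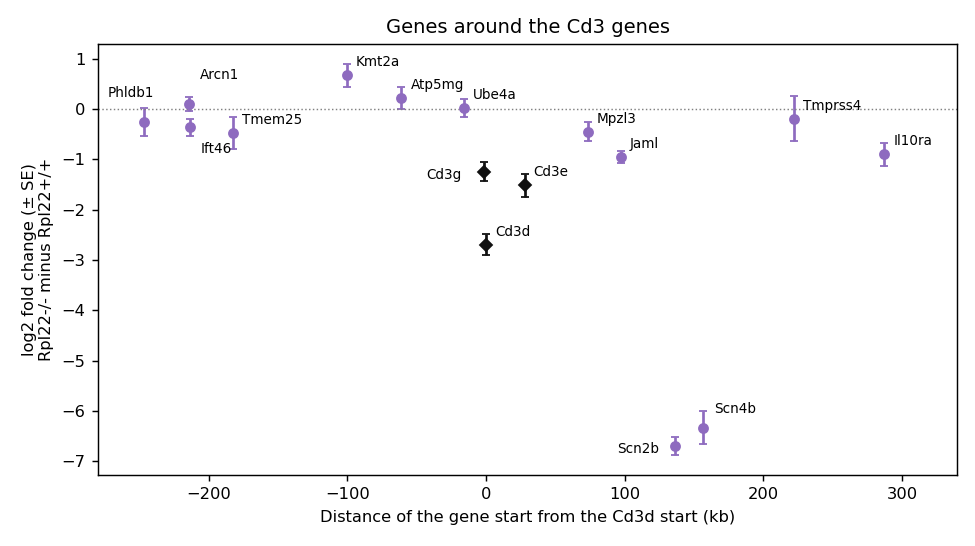
Log2 fold change (Rpl22-/- minus Rpl22+/+, bars are SE) of the tested genes around the CD3 genes, by distance of the gene start from the Cd3d start in kb. The CD3 genes (black diamonds) lie at -1.24 to -2.70, Ube4a beside them lies at 0.02, and Scn2b and Scn4b lie at -6.70 and -6.33. Jaml and Il10ra, on the side of Scn2b and Scn4b, lie at -0.94 and -0.90.

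The constant genes of the receptor chains followed the CD3 genes. Trac, the alpha chain constant gene on chromosome 14, was at 10.8, 10.1 and 8.91 CPM in Rpl22+/+ libraries and at 2.57, 3.19 and 3.34 CPM in Rpl22-/- libraries (log2 fold change -1.71 ± 0.18 (SE)). The beta chain constant genes lie on chromosome 6, Trbc1 at 41515152 to 41516815 and Trbc2 at 41523664 to 41525286 (GRCm39). Trbc1 was at 7.48, 8.16 and 5.72 CPM against 1.98, 1.61 and 2.54 CPM (-1.80 ± 0.25 (SE)).
Trbc2 was at 11.6, 15.6 and 10.2 CPM against 3.42, 3.55 and 4.55 CPM (-1.69 ± 0.23 (SE)). All 3 constant genes were in separate ranges in the genotypes. Trbc1 and Trbc2 are near-identical copies, so the split of reads between them is uncertain. As estimated, Trbc1 held 34.4% to 39.2% of their joint reads in Rpl22+/+ libraries and 31.1% to 36.6% in Rpl22-/- libraries, which overlap. The ratio of Trac to the sum of both beta genes in TPM was 0.462 ± 0.077 (SD, n = 3) against 0.393 ± 0.056 (SD, n = 3), with overlapping libraries.

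Variable genes gave a further view of the same receptor transcripts, and are not independent of Trac and Trbc1 or Trbc2, since a rearranged transcript carries both. Reads of alpha variable genes numbered 802 in Rpl22+/+ and 349 in Rpl22-/- libraries, spread over 87 and 66 genes. Reads of beta variable genes numbered 1207 and 360, spread over 23 and 20 genes. The leading gene of a library took between 13.97% and 22.9% of its beta variable reads and between 7.69% and 13.6% of its alpha variable reads, so no library was dominated by a single variable gene of either chain. In Rpl22-/- replicate 1 these shares rested on only 48 beta and 65 alpha variable reads.

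The filter on low counts kept 13 beta and 3 alpha variable genes, several of them only through their reads in Rpl22+/+ libraries, so their calls are not counted here. Trbv1 had 171 reads in Rpl22+/+ and 61 in Rpl22-/- libraries, Trbv13-2 had 137 and 43, and Trbv13-1 had 158 and 10. Among alpha variable genes, Trav14d-3-dv8 had 78 and 10 reads, Trav6d-6 had 52 and 18, and Trav15d-2-dv6d-2, which can also be used by the delta chain and did not pass the filter, had 17 and 40. Reads of similar variable genes can be shared, so single genes are uncertain.

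Genes of the other kind of receptor, gamma and delta, did not move as one. The 4 gamma constant genes held 1961 reads in Rpl22+/+ and 354 in Rpl22-/- libraries. Trgv2, the gamma variable gene with most reads, had 310 of 408 gamma variable reads in Rpl22+/+ and 41 of 90 in Rpl22-/- libraries. The next gamma variable genes, Tcrg-V4 and Tcrg-V1, had 49 and 20 reads and 38 and 21 reads. The delta constant gene Trdc was instead at 1.48 ± 0.08 CPM (SD, n = 3) and 1.75 ± 0.64 CPM (SD, n = 3), and was not called (log2 fold change 0.25 ± 0.32 (SE), edgeR adjusted p = 0.625). Delta variable genes had 18 reads in all in Rpl22+/+ and 59 in Rpl22-/- libraries, of which Trdv5 took 4 and 42, Trdv2-2 7 and 9, and Trdv1 6 and 3. Trdc thus made up 12.6%, 12.5% and 13.8% of the Trac and Trdc reads of Rpl22+/+ libraries and 30.4%, 35.0% and 41.9% of those of Rpl22-/- libraries, with no overlap. Trac is a member chosen with this contrast in view, so the higher Trdc share is no result apart from the lower Trac.

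**Figure D3:**
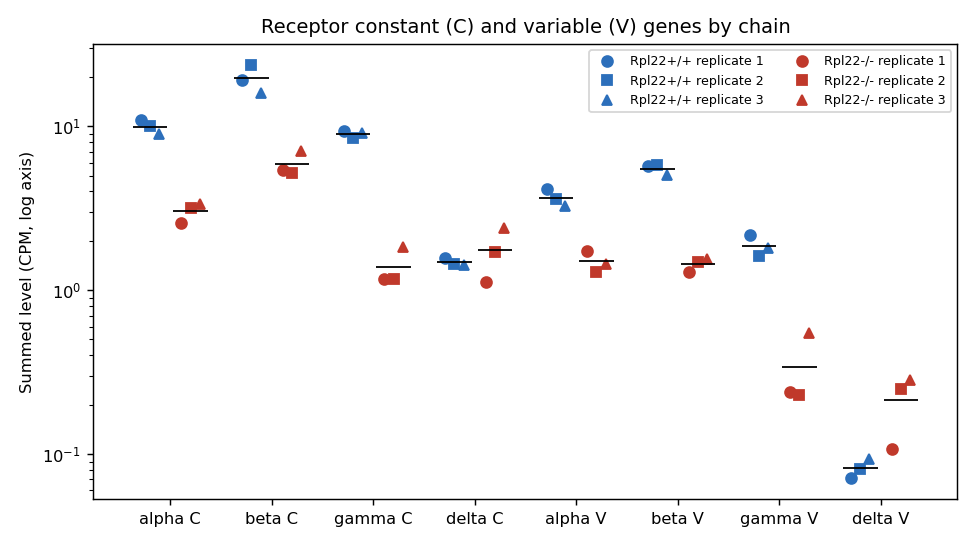
Summed level of receptor constant (C) and variable (V) genes by chain in CPM (log axis) for each library, Rpl22+/+ in blue and Rpl22-/- in red, with lines at the means. The alpha, beta and gamma classes lie lower in each Rpl22-/- library than in any Rpl22+/+ library, the delta constant gene overlaps, and the delta variable genes are higher in Rpl22-/- libraries on 18 and 59 reads.

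Cd4, the co-receptor gene of helper T cells, was at 9.53, 11.0 and 8.38 CPM in Rpl22+/+ libraries and at 3.05, 2.70 and 3.19 CPM in Rpl22-/- libraries (log2 fold change -1.69 ± 0.18 (SE)), with a wide gap between the genotypes. Cd8a, the co-receptor gene of cytotoxic T cells, was the least abundant member per length, with 1.21 ± 0.26 TPM (SD, n = 3) against 0.709 ± 0.076 TPM (SD, n = 3). Its CPM values were 2.95, 2.49 and 2.20 against 1.18, 1.48 and 1.40 (-0.91 ± 0.23 (SE)), so its size stayed under 1 although its groups did not overlap.
A retained-intron transcript, Cd8a-203, held 19.3% to 30.3% of the Cd8a reads of Rpl22+/+ libraries and 22.7% to 39.9% of those of Rpl22-/- libraries. Counting coding transcripts alone gave Cd8a a log2 fold change of -1.06. The TPM ratio of Cd4 to Cd8a was 2.93, 3.86 and 3.39 in Rpl22+/+ libraries and 2.36, 1.504 and 1.90 in Rpl22-/- libraries, without overlap.

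Lck was lower by less than the receptor genes. It was at 13.5, 17.1 and 10.8 CPM in Rpl22+/+ libraries and at 6.12, 7.19 and 6.69 CPM in Rpl22-/- libraries (log2 fold change -1.05 ± 0.20 (SE)), and the groups did not overlap. Its ratio to Cd3e in TPM was 1.57 ± 0.18 (SD, n = 3) against 2.29 ± 0.47 (SD, n = 3). That size did not stay over 1 in 6 of 17 alternatives. It was -0.91 without Rpl22+/+ replicate 2, -0.99 without Rpl22-/- replicate 1, -0.997 with upper-quartile factors, -0.91 with no composition factor, -0.85 with log2(TPM + 0.1) and -0.76 with log2(TPM + 1).
Lck has a distal and a proximal promoter, and in these data its main transcripts were Lck-202 from the upstream start and Lck-201 from a start 15250 bases downstream. Lck-202 held 80.5%, 63.7% and 74.6% of Lck reads in Rpl22+/+ libraries and 86.9%, 87.9% and 80.7% in Rpl22-/- libraries. The ranges were apart, but the closest pair, Rpl22+/+ replicate 1 and Rpl22-/- replicate 3, had Wilson 95% intervals that overlapped (77.9% to 82.9% and 77.6% to 83.4%).

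Cd2, an adhesion receptor of T cells that mouse B cells also carry, was the most abundant member per length (41.9 ± 5.1 against 28.6 ± 8.2 TPM, SD, n = 3) and the one least changed. It was at 33.9, 41.4 and 27.0 CPM in Rpl22+/+ libraries and at 13.5, 27.9 and 23.9 CPM in Rpl22-/- libraries (log2 fold change -0.64 ± 0.30 (SE)). The groups overlapped, and the lowest value came from Rpl22-/- replicate 1, without which the log2 fold change was -0.39. B cell marker genes (13 genes, led by Igkc and Ighm) summed to 4064, 5539 and 3565 CPM in Rpl22+/+ libraries and to 3331, 5313 and 5173 CPM in Rpl22-/- libraries, also lowest in Rpl22-/- replicate 1. These sums were set mainly by Igkc and Ighm (-0.38 and 0.87, neither called). The median log2 fold change of the 13 genes was -0.51, with 11 of them below 0, 5 lower without overlap (Ms4a1, Pax5, Ebf1, Blk and Ighd), 1 called lower (Ighd) and 1 called higher (Cr2). Of all tested genes 22.2% were lower without overlap, 8.54% were called lower and 8.93% were called higher. Their part in the Cd2 level was not tested.

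Per length, the order of the levels in Rpl22+/+ cells was Cd2, Trbc2, Trac, Trbc1, Cd3d, Lck, Cd3g, Cd3e, Cd4 and Cd8a, with means from 41.9 to 1.21 TPM. Neighbours such as Cd3d (9.95 ± 0.92) and Lck (9.52 ± 1.47) or Cd3g (6.44 ± 0.87) and Cd3e (6.10 ± 1.18, SD, n = 3) did not differ beyond their spread. In Rpl22-/- cells Cd3d was at 1.75 ± 0.31 TPM, below Cd3e (2.32 ± 0.49) and Cd3g (2.88 ± 0.20), and Lck was at 5.20 ± 0.54 TPM (SD, n = 3). Across the 6 libraries Pearson's r of log2 CPM between pairs of members ran from 0.70 to 0.997, a description of points that share the genotype difference. After the genotype means were removed it ran from 0.09 to 0.97.

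Other T cell genes, 89 in 7 lists drawn up with earlier results known, moved less uniformly. Of the 85 tested, 27 were called lower and 4 higher, beside 8.54% and 8.93% of all tested genes, the shares against which the counts of each list and marker list below stand, and their median log2 fold change was -0.63. The count called lower was 16 with limma on log2(TPM + 0.1) and 9 on log2(TPM + 1). Of the 27, 5 (Trat1, Cd40lg, Rag1, Rag2 and Dntt) passed the filter on low counts through the Rpl22+/+ libraries alone, where they are high, which favours a call as lower. The 10 members reached the level of the filter in every library. Of the receptor complex list outside the members (10 genes, median -1.36), 6 were lower and 1 higher. Cd247, the zeta chain gene, was at 8.62, 10.1 and 6.79 CPM against 2.99, 3.34 and 3.86 CPM (-1.32 ± 0.21 (SE)), and Cd8b1, which pairs with Cd8a, fell by 1.40 on the log2 scale.
Cd6, a receptor at the T cell contact site, and the gamma constant genes Tcrg-C1, Tcrg-C2 and Tcrg-C4 also fell (log2 fold changes -1.60, -2.36, -3.35 and -1.96). Thy1, a surface protein of T cells and some progenitors, rose from 10.1, 14.2 and 8.62 CPM to 39.1, 44.2 and 38.2 CPM (log2 fold change 1.88 ± 0.21 (SE)). Ptprcap, a partner of CD45, was at -0.12 ± 0.25 (SE) and was not called.

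Of 24 genes that act next to the receptor (median -0.66), 6 were called lower and none higher. Zap70, the kinase recruited to the phosphorylated CD3 and zeta chains, fell by 1.15 on the log2 scale, and Lat, the scaffold that it phosphorylates, fell by 1.42. Rasgrp1, an activator of Ras, also fell (-1.30), as did Themis and Trat1, of T cell development and receptor stability (-2.53 and -3.14). Themis was uneven at 5.81, 1.11 and 5.22 CPM against 1.04, 0.469 and 0.632 CPM, with Rpl22+/+ replicate 2 close to Rpl22-/- replicate 1. Trat1, with 217 and 28 reads, passed the filter on low counts through the Rpl22+/+ libraries alone, so its call is given no weight. The genes of the list with most reads were Ptpn6, Vav1 and Csk, which myeloid cells also use, and they were not called (-0.58, -0.08 and -0.20).

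Among 12 costimulatory and inhibitory genes (median -0.89), Pdcd1, Cd40lg and Tnfrsf9 were called lower (-1.37, -2.21 and -1.46) and Cd27 was called higher (1.80 ± 0.17 (SE)). Cd40lg, with 122 and 27 reads, passed the filter on low counts through the Rpl22+/+ libraries alone, so its call is given no weight. Cd27 was at 4.61, 5.92 and 4.44 CPM against 18.7, 16.4 and 17.03 CPM, a clear separation in the direction opposite to the members. Cd28, the main costimulatory receptor of T cells, and Tnfrsf4 overlapped between the genotypes (0.25 and 0.14).

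Of 14 transcription factors of T cells (median -0.98), 7 were called lower and none higher. Satb1, a chromatin organizer, fell by 2.53 on the log2 scale from 56.8, 50.5 and 53.2 CPM to 8.42, 9.26 and 10.01 CPM. Tcf7 and Lef1, the T cell partners of beta-catenin, also fell (-2.13 and -1.56), as did Gata3 (-1.66), Tox (-1.95) and Foxp3 of regulatory T cells (-1.88). Ets1, a factor of lymphocytes in general, was at 245, 274 and 241 CPM against 104, 110 and 104 CPM (-1.25 ± 0.13 (SE)). Runx3 and Zbtb7b were not called (0.53 and -0.70).

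Of 10 cytokine receptor and homing genes (median -0.70), Cxcr6 and Il2ra were called lower (-1.11 and -2.43), while Il2rg and Il2rb, which other leukocytes also carry, were not (-0.25 and -0.09). Of 11 effector genes 8 were tested, with a median of 0.42. Gzma and Nkg7, granule genes of cytotoxic T cells and NK cells, were called higher (2.38 and 3.01) and none was called lower. Nkg7 was at 16.0, 25.5 and 14.8 CPM against 166, 142 and 144 CPM, above the sum of the NK cell list below in each genotype. Which cells carried Nkg7 was not tested. Prf1, for perforin, was at -0.22 ± 0.26 (SE) and Ccl5 at 0.89 ± 0.30 (SE), neither of them called.
Of 8 thymocyte and progenitor genes 7 were tested (median -0.51). The 3 called lower were the recombination genes of early lymphocytes, each of which passed the filter through the Rpl22+/+ libraries alone, so their calls are given no weight. Rag1 had 97 reads in Rpl22+/+ and 4 in Rpl22-/- libraries, Rag2 had 39 and 1, and Dntt had 1323 and 17, and B and T cell precursors share these genes. Notch1 and its target Dtx1 were not called (-0.51 and 0.62).

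**Figure D4:**
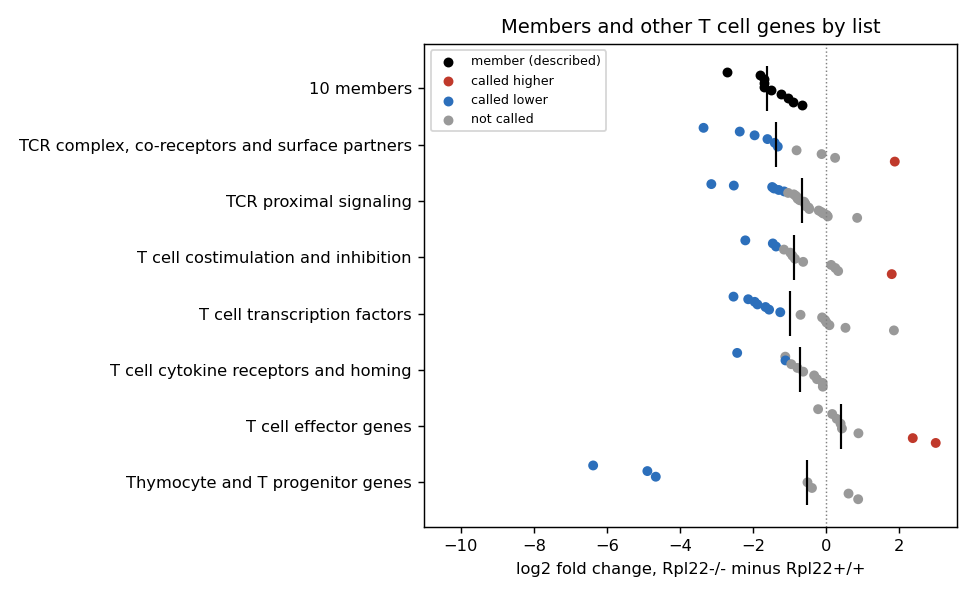
Log2 fold change (Rpl22-/- minus Rpl22+/+) of the 10 members (black) and of the tested genes of 7 other T cell lists, with red and blue for genes called higher and lower, grey for those not called, and a black line at each median. All members lie below 0, with a median of -1.60, and the effector list has a median of 0.42.

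Marker lists of other cells that the sort could hold moved in several directions. NK cell genes (9 genes, led by Klrk1 and Klrb1c) summed to 6.10 to 8.56 CPM in Rpl22+/+ and 14.4 to 21.3 CPM in Rpl22-/- libraries, with 5 called higher and none lower. Erythroid genes (9 genes, led by Hbb-bs and Hba-a2) summed to 89.1 to 135 CPM against 623 to 1193 CPM, with 8 called higher. Both lists thus lay apart in the direction opposite to the members, whose own sum was 92.8 to 131 CPM against 37.1 to 53.8 CPM.
Plasmacytoid dendritic cell genes (6 genes, led by Ly6d and Smim5) summed to 32.6 to 49.3 CPM against 36.5 to 55.9 CPM, a sum set mainly by those 2 genes, and Smim5 was called higher. The median log2 fold change of the 6 was -0.89, with 5 of them below 0, and 3 were lower without overlap (Siglech -0.66, Ccr9 -1.12 and Klk1 -1.63), none of these called. Of all tested genes 22.2% were lower without overlap. Platelet genes (7 genes, of which Itga2b and Gp9 were tested) summed to 2.81 to 4.52 CPM against 3.42 to 3.66 CPM, with none called. Stromal and endothelial genes (8 genes, 4 tested, led by Col1a1 and Cdh5) summed to 5.77 to 6.54 CPM against 2.99 to 4.89 CPM. In this last list Pdgfrb had 257 reads in Rpl22+/+ and 0 in Rpl22-/- libraries and Kdr had 33 and 87, and each passed the filter through the genotype with more reads alone, so their calls are not counted. Both genes are part of the stromal and endothelial sums, so the gap between these sums includes that of Pdgfrb. The part of these cells in the levels of the members was not tested.

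**Figure D5:**
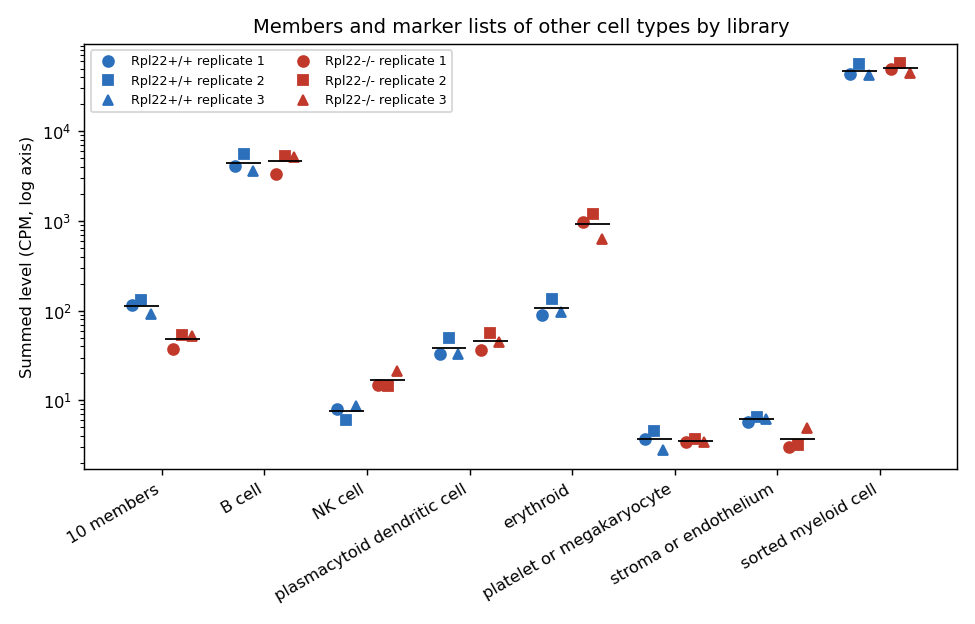
Summed level of the 10 members and of each marker list in CPM (log axis) for each library, Rpl22+/+ in blue and Rpl22-/- in red, with lines at the means. The members sum to 92.8 to 131 CPM against 37.1 to 53.8 CPM, the B cell sum, set mainly by Igkc and Ighm, overlaps between genotypes although 11 of its 13 genes lie below 0, and the NK cell and erythroid lists are higher in each Rpl22-/- library.

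The genes whose levels were most like the mean standardized level of the members, by Pearson's r across the 6 libraries among 12384 genes outside all lists, were Ltbp4, Ppp1r16b, Larp1b, Kctd14, Map6, Ftl1-ps2, Camk2b, Ighv3-6, Acss1 and Slc37a2. Their r ran from 0.994 to 0.998, and 806 genes had an r over 0.95, so that likeness over 6 libraries in 2 groups was common. Their log2 fold changes ran from -4.99 for Ftl1-ps2 to -0.58 for Larp1b.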

How the data were processed

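Poly(A) RNA of 6 samples was made into stranded libraries and sequenced in pairs. Adaptors were trimmed by the authors with Trimmomatic, and Salmon was used for transcript abundance (GRCm39); versions and settings are not given in the sources used here. Per library they deposited estimated counts and TPM for 276623 transcripts. The deposited table of the authors' own comparison (fold changes, p-values) was not used except for gene positions (GRCm39).

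Transcripts were summed to genes through GENCODE vM21 identifiers without version, which matched 136036 transcripts (49.2%) and 98.0% to 98.1% of reads. Trgc1, Trgc2 and Trgc4 were read as Tcrg-C1, Tcrg-C2 and Tcrg-C4. Estimated counts were rounded, filtered with filterByExpr and scaled by TMM. Genotypes were compared in R 4.3.3 with edgeR 4.0.16 (quasi-likelihood F test, Benjamini-Hochberg over 16656 genes), with CPM on TMM-scaled library sizes. A call needed an adjusted p under 0.05 and a change of more than 1 on the log2 scale. The fit was run with and without robust estimation before the version without it was kept. DESeq2 1.42.0 and limma 3.58.1 were alternatives, as were other scalings, filters, a replicate block, coding transcripts and each library left out. The edgeR fit was tested on simulated data, where the share of false calls was above the nominal level of the threshold and most of the smaller planted changes were missed. Promoters and motif shares came from RefSeq (GRCm38.p6). Intervals were exact Poisson or Wilson at 95% and, like all read counts, cover counting error only.

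The members and gene lists were chosen with earlier results of these data known. Named were the members, the 3 genes with the highest mean CPM and all called genes of each T cell list, the sum and the 2 genes with the highest mean CPM of each marker list, the 3 variable genes of each chain with most reads, and the 10 genes most like the members with a mean of at least 1 CPM, except 2 genes of the T cell lists that are left unreported. The genes around the CD3 cluster, and other marker genes given beside a result, were picked after their values were seen.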

Additional observations from a re-analysis of the deposited data

Results flagged for a closer look

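Reads of transcripts that matched no gene of the annotation entered no comparison, and they made up at most 2.04% of a library.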

How the results depend on the processing

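All 10 members stayed below 0 in log2 fold change under all 17 alternatives. The number that met the calling rule as lower was 8, and ran from 6 (log2(TPM + 1), without Lck and Cd3g, the latter at -0.93) to 9 (coding transcripts only, with Cd8a). It was 7, without Lck, with upper-quartile factors, with no composition factor, with log2(TPM + 0.1), without Rpl22+/+ replicate 2 and without Rpl22-/- replicate 1. With no composition factor the median of all genes moved to 0.19. With limma on log2(TPM + 1), which compresses low values, genes called higher were 904 and lower 699, and 9 genes of the T cell lists were called lower. With log2(TPM + 0.1) that last count was 16. Leaving out each library in turn gave 1031 to 1708 genes higher and 1177 to 1723 lower, and 4 to 6 T cell list genes higher and 19 to 33 lower. Replicate numbers could not be shown to pair the samples. Deviations of same-numbered libraries from their genotype means correlated at 0.48, 0.63 and 0.10 over tested genes (0.57, 0.71 and 0.13 over the 13202 genes whose mean reached 50 counts), the third under 0.1 before rounding, and Rpl22+/+ replicate 3 correlated better with Rpl22-/- replicate 1. With the replicate block 1691 genes were higher and 1488 lower, 5 and 28 T cell list genes, and 8 members lower; these counts were in view when the pairing was judged. Depth limits the Rag genes and single variable genes, which had under 100 reads in at least 1 genotype.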
